A study of Mus musculus with 16 samples.

Results

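The 32 genes described here carry glucose into the cell, break it down to pyruvate and lactate, or belong to the response to low oxygen. They were taken by name, and are 32 of the 29453 genes with a row in the deposited count matrix. By role they comprise 2 glucose transporters (*Slc2a1*, *Slc2a3*), 9 genes of the steps from glucose to triose phosphate (*Hk1*, *Hk2*, *Gpi1*, *Pfkl*, *Pfkm*, *Pfkp*, *Aldoa*, *Aldoc*, *Tpi1*), 6 of the steps from triose phosphate to pyruvate (*Gapdh*, *Pgk1*, *Pgam1*, *Eno1*, *Eno2*, *Pkm*), 5 that decide the fate of pyruvate and export lactate (*Ldha*, *Ldhb*, *Slc16a1*, *Slc16a3*, *Pdk1*), 5 oxygen sensors and transcription factors (*Hif1a*, *Epas1*, *Arnt*, *Egln1*, *Egln3*) and 5 genes known to respond to hypoxia (*Vegfa*, *Ddit4*, *Ankrd37*, *P4ha1*, *Adm*).

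Chimeric mouse embryos were made by injecting *Stat3* null embryonic stem cells (ESCs) that carry the red fluorescent protein tdTomato into host CD1 blastocysts, and were collected on 3 successive embryonic days (E7.5 to E9.5). Cells were sorted by fluorescence into tdTomato-positive null cells and tdTomato-negative wild-type (WT) host cells, and their RNA was counted by droplet single-cell sequencing with unique molecular identifiers (UMIs). Each genotype had 2 libraries per stage up to E8.5 and 4 at the last stage, named here by stage, genotype and a letter. The question was whether cells without STAT3 express these genes differently from the host cells around them, and how the genes change from stage to stage. The null cells came from ESCs in which part of *Stat3* is replaced by a Neo cassette, and both genotypes have the CD1 background. Embryos were pooled at E7.5 and E8.5, and null and WT libraries of a stage came from the same chimeras. The study's supplement describes the E7.5 embryos as classed by size, large or small. The library names carry no size class, so E7.5 libraries of a genotype may differ in embryo size, which was not tested. No chimera with WT tdTomato ESCs was among the samples, so the loss of *Stat3* and a history as cultured, labelled ESCs cannot be told apart. Stage and the handling of the embryos of that stage cannot be told apart either. The labels give each null sample and a WT sample a common embryo pool, but the library names in the matrix carry no pool, so the letters are only names. The labels give 1 embryo for a pool at E9.5 and 4 pools, whereas the study's methods describe fewer embryos than pools, so libraries of a genotype may share an embryo there, and tests that take all 4 as independent then give p values that are too small; this was not settled here. *Xist*, the RNA of the inactive X chromosome of females, stood at 622 and 625 CPM of all UMIs in E9.5 WT B and C and at 0.114 and 0.323 in A and D. *Kdm5d*, a Y-linked gene, stood at 8.92 in E9.5 null C and at most 0.469 in the other E9.5 null libraries. The tests measure the spread between these libraries.

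Glycolysis breaks glucose down to pyruvate and yields ATP without oxygen; lactate dehydrogenase then turns pyruvate to lactate, and monocarboxylate transporters carry lactate out. Early embryos are known for high glycolytic activity that gives way to oxidative metabolism as the heart and circulation form. In normal oxygen, prolyl hydroxylases (the *Egln* proteins) mark the hypoxia-inducible factors HIF1A and EPAS1 for destruction; in low oxygen these pair with ARNT, bind DNA and switch on glycolytic genes, *Vegfa* and others. Much of this control acts on the protein, which RNA counts do not show.

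After 3395 predicted doublets had been removed, with 596 cells that were sorted as WT but held a UMI of tdTomato, 37841 of 41832 cells remained, in 360 to 4327 cells and 20682659 to 138613245 UMIs per library. A tdTomato UMI was found in 96.1 to 98.3% of null cells except in E8.5 null A (89.8%) and E8.5 null B (72.3%). *Stat3* stood at 6.14 to 9.31 CPM of all UMIs in the WT and 1.16 to 2.54 in the null libraries; a tag from the transcript end does not itself check the deletion. Libraries E9.5 WT C and E9.5 WT D shared 292 cell barcodes, 15.3% of the smaller library, whereas no other pair shared more than 0.556%. The 32 genes took 1.43 to 1.56% of all UMIs at E7.5, 1.25 to 1.43% at E8.5 and 1.04 to 1.19% at E9.5, with no overlap between E7.5 or E8.5 and E9.5.

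Between E8.5 and E9.5 most of the pathway went down, in WT and in null cells alike. On the sums of all cells of a library, 22 of the 32 genes fell and 1, *Ldhb*, rose in WT (edgeR, adjusted p under 0.05), against 17.7% of all genes tested that fell and 22.7% that rose. In null libraries 23 fell and 1, again *Ldhb*, rose, against 17.9% and 22.4% of all genes. The median log2 change of the 32 genes was -0.52 in WT and -0.55 in null, beside 0.06 for all genes in WT. Among the 1773 most abundant genes, which hold 16 of the 32, 48.5% fell and 10.3% rose in WT. All 32 genes passed the filter on low counts. Counts were scaled by TMM, which centres the bulk of genes; dividing by the total of all UMIs instead moved every gene up by 0.26 (WT) or 0.24 (null) on the log2 scale, after which 16 fell and 4 (*Ldhb*, *Hif1a*, *Arnt*, *Egln1*) rose in WT, and 15 fell and 5 (*Ldhb*, *Hif1a*, *Egln1*, *Pfkm*, *Eno2*) rose in null. The falls that no longer passed were those of *Gapdh*, *Gpi1*, *P4ha1*, *Ankrd37*, *Pkm* and *Egln3* in WT and of *Eno1*, *Gapdh*, *Gpi1*, *P4ha1*, *Hk1*, *Pkm*, *Egln3* and *Vegfa* in null. With 1 library left out, *Ankrd37*, *Egln3*, *Hk2* and *Pkm* no longer passed without E8.5 WT B in WT, and *Egln3* also without E9.5 WT B or C. In null, *Eno1*, *Gpi1*, *Hk1* and *P4ha1* no longer passed without E8.5 null A and *Vegfa*, *Pkm* and *Egln3* without E8.5 null B, *Pkm* also without E9.5 null A or B and *Egln3* without E9.5 null B, C or D. A set of 15 genes known to respond to cell dissociation summed to 2394 to 2742 CPM of all UMIs at E8.5 and 2559 to 3123 at E9.5, and its part in these changes was not tested. Changes below are relative to the TMM scale, and levels in library sums are normalised CPM, the UMI counts of a gene scaled to a common library total. Levels of single cell types are instead CPM of the UMIs of the genes that entered the fits, without TMM scaling. They are not divided by transcript length, since each UMI tags a transcript end, so levels are compared within a gene.

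**Figure D1:**
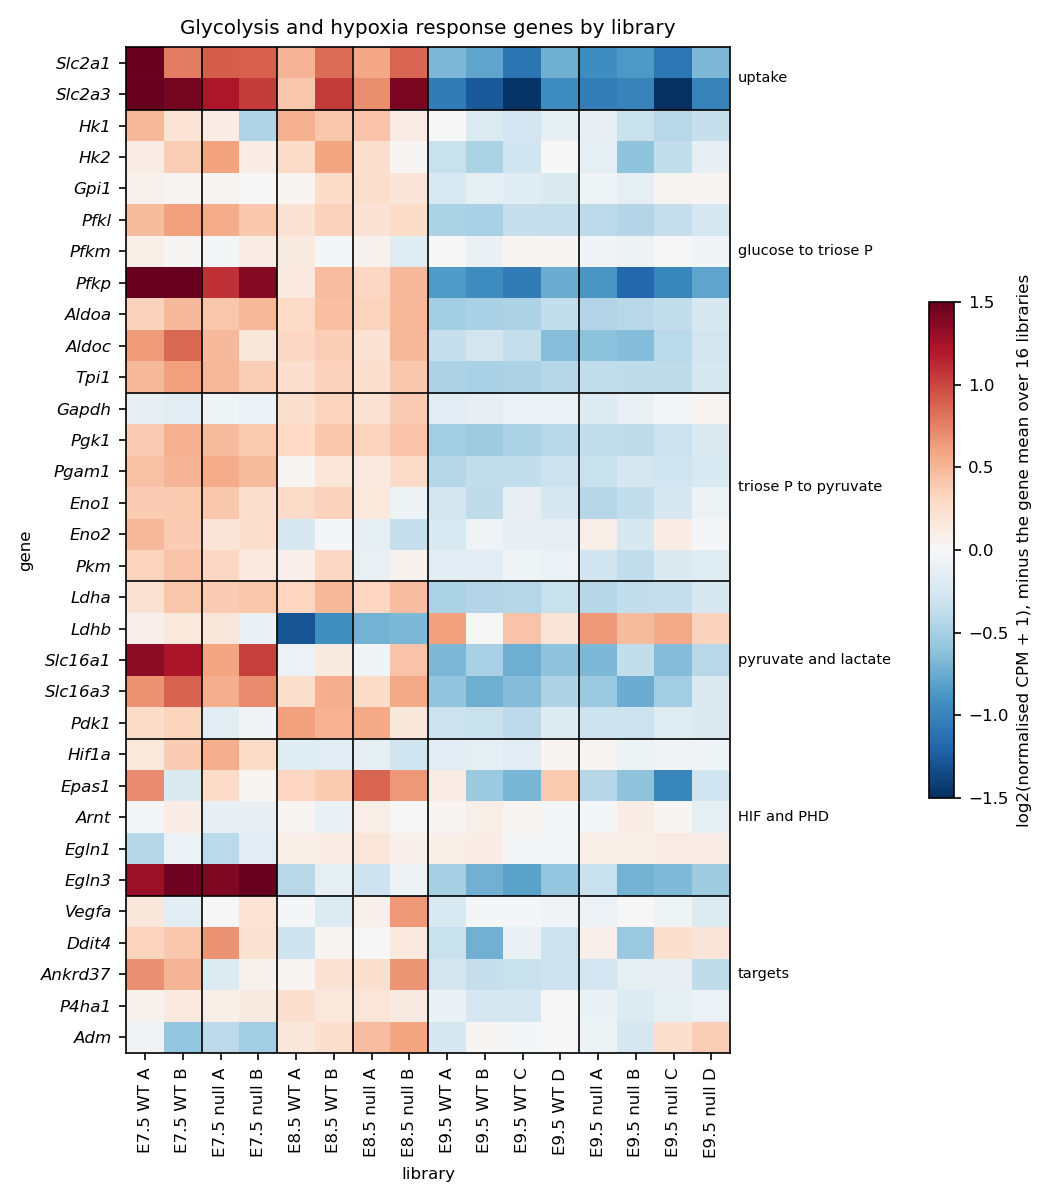
Level of each of the 32 genes in each of the 16 libraries, as log2(normalised CPM + 1) minus the mean of that gene over the libraries, with colours cut at 1.5 in either direction. Genes are ordered by role and libraries by stage and genotype; the E9.5 columns are the lowest for most glycolytic genes, while *Ldhb* is lowest at E8.5.

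In WT the steepest falls were in the glucose transporters. *Slc2a1* (chr4:119108711-119137983, plus strand, GRCm38) encodes GLUT1, the widely expressed basal transporter, and stood at 772 and 471 CPM in E7.5 WT, 393 and 497 in E8.5 WT and 173, 159.7, 129 and 166 in E9.5 WT. Its null libraries held 519 and 518, then 416 and 506, then 144, 152, 130.2 and 173. All 8 E9.5 libraries thus lay below every earlier library, and the genotypes overlapped at every stage. The fall from E8.5 to E9.5 was 2.84-fold in WT (log2 -1.5, SE 0.18, edgeR adjusted p 6e-05) and 3.07-fold in null (log2 -1.62, SE 0.18).

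*Slc2a3* (chr6:122727809-122801640, minus strand) encodes GLUT3, a transporter of high affinity known from neurons and early embryos. WT levels were 756 and 498 CPM (E7.5), 244 and 383 (E8.5), and 88.3, 76.4, 65.8 and 95.5 (E9.5). The corresponding null levels were 427 and 381, 299 and 491, and 89.3, 91.2, 63.3 and 91.4. No E9.5 library reached the lowest E8.5 library. *Slc2a3* fell 3.85-fold in WT (log2 -1.94, SE 0.24) and 4.71-fold in null (log2 -2.23, SE 0.24) from E8.5 to E9.5. It had already fallen from E7.5 to E8.5 in WT (log2 -1.0, 95% interval -1.63 to -0.36, adjusted p 0.015), whereas in null that step was -0.04 (-0.66 to 0.59, adjusted p 0.94), and the difference between the genotypes' steps did not pass the test. The WT fall did not pass when only the groups compared were fitted (adjusted p 0.086), nor without E7.5 WT A (log2 -0.67) or E8.5 WT A (log2 -0.71).

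From glucose to triose phosphate, 8 of the 9 genes fell in WT from E8.5 to E9.5. *Pfkp*, the platelet isoform of phosphofructokinase, which commits sugar to glycolysis, went down at both steps. It stood at 50.2 and 52.0 CPM in E7.5 WT, 16.1 and 20.4 in E8.5 WT and 7.60, 7.10, 6.47 and 8.23 in E9.5 WT. In null libraries it stood at 32.2 and 39.1, then 18.2 and 20.6, then 7.48, 5.85, 6.88 and 7.93. No library of a later stage overlapped one of an earlier stage. *Pfkp* fell 2.81-fold from E7.5 to E8.5 (log2 -1.49, SE 0.15) and 2.47-fold from E8.5 to E9.5 (log2 -1.31, SE 0.13) in WT, and by 0.88 and 1.46 on the log2 scale in null. The liver isoform *Pfkl* fell by 0.70 in WT and 0.61 in null at the later step, while the muscle isoform *Pfkm* changed by -0.08 and 0.01 (95% intervals -0.25 to 0.08 and -0.16 to 0.18) and did not pass.

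*Aldoa* encodes the main aldolase, which cleaves the sugar. It held 1704 and 1879.6 CPM in E7.5 WT, 1633 and 1832 in E8.5 WT and 944, 956, 971 and 1037 in E9.5 WT. Null libraries had 1797 and 1895, 1689.9 and 1892, and 993, 1003, 1042 and 1133. The first 2 stages overlapped, and E9.5 was lower in every library. *Aldoa* fell 1.77-fold in WT at the later step (log2 -0.83, SE 0.07, adjusted p 5.2e-06), and by 0.78 in null. Its brain-enriched paralog *Aldoc* was scarce, at 7.26 and 8.65 CPM in E7.5 WT, 5.60 and 5.89 in E8.5 WT, and 3.20, 3.41, 3.15 and 2.43 in E9.5 WT. Null libraries had 6.44 and 5.0, 5.20 and 6.51, and 2.48, 2.39, 3.03 and 3.38. Here too E9.5 stood below both earlier stages, with a fall of 0.92 in WT (SE 0.18) and of 1.05 in null (2.07-fold, SE 0.18) on the log2 scale.

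*Tpi1*, triose phosphate isomerase, interconverts the products of that cleavage. Its levels were 1349 and 1481 CPM in E7.5 WT, 1145 and 1226 in E8.5 WT and 698, 688, 697 and 719 in E9.5 WT. They were 1359.8 and 1247, 1143 and 1276, and 746, 737, 743 and 813 in null. E9.5 libraries lay well under the rest, and the 4 WT and 4 null libraries of that stage did not overlap, although the genotype difference did not pass (log2 0.12, 95% interval 0.01 to 0.23, adjusted p 0.48). *Pgk1* also parted at E9.5, at 931 to 1043 CPM in null and 835 to 902 in WT. The share of all genes that part in this way was not counted. *Tpi1* fell by 0.76 in WT and 0.67 in null from E8.5 to E9.5 (SE 0.06 each). *Gpi1*, glucose-6-phosphate isomerase, fell less (0.36 and 0.26). Of the hexokinases, which trap glucose in the cell, *Hk1* fell by 0.66 in WT and 0.62 in null, and *Hk2* fell by 0.72 in WT and changed by -0.45 in null without passing (adjusted p 0.056).

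**Figure D2:**
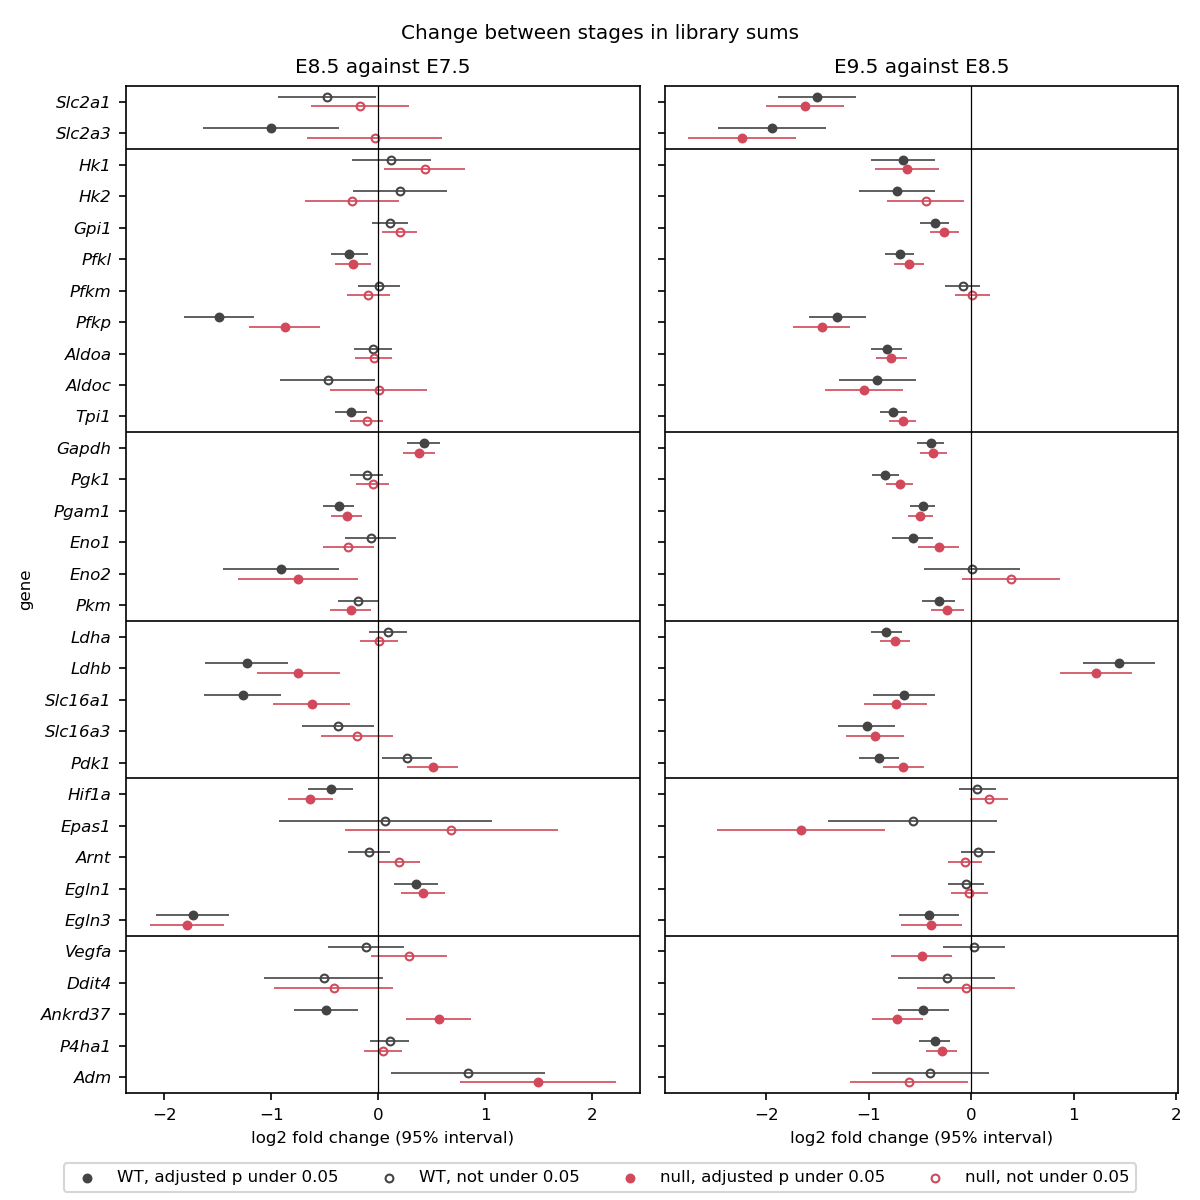
Log2 fold change of each gene between successive stages, WT in black and null in red, from the edgeR fit over all 16 libraries. Lines are 95% intervals and filled points have an adjusted p under 0.05; from E8.5 to E9.5 nearly all filled points lie left of 0 in both genotypes, with *Ldhb* far to the right.

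From triose phosphate to pyruvate, 5 of 6 genes fell in WT at the later step, but by less than the transporters. *Gapdh*, which makes the NADH of glycolysis, stood at 3571 and 3496 CPM in E7.5 WT, 4587 and 4903 in E8.5 WT and 3493, 3592, 3661 and 3679 in E9.5 WT. The null libraries had 3724 and 3668, 4546 and 5070.1, and 3418, 3614, 3851 and 3989. The E8.5 libraries were the highest in both genotypes. *Gapdh* rose by 0.43 in WT and 0.38 in null to E8.5 and fell by 0.40 and 0.37 to E9.5 (SE 0.06 to 0.07, largest adjusted p 0.00093). Its rise stood with library totals too (0.26 in WT), but its fall did not.

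*Pkm*, pyruvate kinase, catalyses the last step and is known for splice forms that gene-level counts cannot separate. It held 2821 and 3008 CPM in E7.5 WT, 2351 and 2764 in E8.5 WT and 1985, 1989, 2131 and 2095 in E9.5 WT. In null it held 2770.0 and 2466, 2062 and 2318, and 1821, 1734, 1926 and 1973. E9.5 libraries were the lowest of each genotype. *Pkm* fell by 0.32 in WT (adjusted p 0.0044) and 0.23 in null (adjusted p 0.025), neither of which stood with library totals, where the null value turned to 0.0085. *Pgk1*, phosphoglycerate kinase, which makes the first ATP of the pathway, fell by 0.84 and 0.70, *Pgam1* by 0.48 and 0.50 and *Eno1* by 0.57 and 0.32. The row of *Eno1b*, a near-identical copy of *Eno1*, could take some of its reads. The neuronal enolase *Eno2* was at most 2.32 CPM in any library and changed by 0.01 and 0.39 without passing.

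At the branch after pyruvate the 2 lactate dehydrogenase subunits moved in opposite directions. *Ldha* encodes the M subunit, known to favour the making of lactate. Its levels were 3208 and 3675 CPM in E7.5 WT, 3428 and 3887 in E8.5 WT and 1979, 2029, 2040.0 and 2188 in E9.5 WT, and 3578 and 3652, 3447 and 3802, and 2049, 2135, 2157 and 2318 in null. E7.5 and E8.5 overlapped, and all E9.5 libraries lay far below them. *Ldha* fell 1.78-fold in WT (log2 -0.83, SE 0.07, adjusted p 5.2e-06) and by 0.74 in null at the later step, and at the earlier step changed by 0.09 in WT and 0.00 in null without passing.

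*Ldhb* encodes the H subunit, known from tissues that take up and oxidise lactate. It stood at 141 and 150.1 CPM in E7.5 WT, 54.2 and 70.2 in E8.5 WT and 206, 134, 181 and 154 in E9.5 WT. The null libraries had 152 and 125, 81.9 and 83.4, and 210.5, 186, 199 and 171. E8.5 was the lowest stage of both genotypes with no overlap with the others. *Ldhb* fell 2.34-fold in WT to E8.5 (log2 -1.23, SE 0.18) and by 0.75 in null, then rose 2.71-fold in WT (log2 1.44, SE 0.16, adjusted p 4.6e-05) and 2.32-fold in null (log2 1.21, SE 0.16). As a share of both lactate dehydrogenase genes, *Ldhb* took a mean of 4.07% in E7.5 WT, 1.66% in E8.5 WT and 7.58% in E9.5 WT, and 3.69%, 2.23% and 8.17% in null.

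Promoter sequence was read for these genes because they moved together while *Ldhb* went the other way. The letters ACGTG form the core of the site that HIF binds, and were searched on both strands of windows from 250 bases before to 50 bases after each RefSeq start (GRCm38.p6). Windows were found for 30 of the 32 genes, 43 windows in all, with none matched for *Slc2a3* and *Epas1*. ACGTG was in 51.2% of the 43 windows, in 23.7% of those of all genes tested and in 19.6% of all 32851 windows; the 43 windows had a median of 20 CG dinucleotides, the tested genes 19 and all windows 7. GCGTG, the other usual form, was in 58.1%, 47.5% and 32.4%, and the spaced letters TTCNNNGAA of a STAT site in 4.65%, 6.62% and 8.30%. ACGTG also lies within CACGTG, so 1 site can count on both strands. The 250 bases before the start are printed for *Ldha* and *Ldhb*, which moved apart, and for *Pgk1*, *Slc16a3* and *Ankrd37*, which are described here and hold 2 matches each; capitals mark ACGTG on either strand, and the position of each stretch follows in parentheses after its gene: *Ldha* (chr7:46845554-46845803, plus strand), *Ldhb* (chr6:142507958-142508207, minus strand), *Pgk1* (chrX:106186850-106187099, plus strand), *Slc16a3* (chr11:120948817-120949066, plus strand) and *Ankrd37* (chr8:45999851-46000100, minus strand).
Ldha: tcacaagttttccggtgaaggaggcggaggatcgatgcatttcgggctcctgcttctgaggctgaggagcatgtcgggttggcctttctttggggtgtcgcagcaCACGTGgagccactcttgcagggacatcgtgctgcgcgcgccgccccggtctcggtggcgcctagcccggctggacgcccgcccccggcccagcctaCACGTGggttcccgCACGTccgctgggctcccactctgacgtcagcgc
Ldhb: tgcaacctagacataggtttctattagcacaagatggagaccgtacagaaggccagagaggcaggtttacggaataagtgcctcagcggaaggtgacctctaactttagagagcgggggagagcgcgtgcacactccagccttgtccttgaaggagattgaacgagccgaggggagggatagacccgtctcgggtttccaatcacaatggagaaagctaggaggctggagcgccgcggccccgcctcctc
Pgk1: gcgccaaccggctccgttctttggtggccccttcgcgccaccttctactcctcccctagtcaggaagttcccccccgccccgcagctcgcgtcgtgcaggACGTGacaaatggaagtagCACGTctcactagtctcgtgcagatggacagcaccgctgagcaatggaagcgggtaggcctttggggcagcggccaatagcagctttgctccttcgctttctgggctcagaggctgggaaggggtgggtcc
Slc16a3: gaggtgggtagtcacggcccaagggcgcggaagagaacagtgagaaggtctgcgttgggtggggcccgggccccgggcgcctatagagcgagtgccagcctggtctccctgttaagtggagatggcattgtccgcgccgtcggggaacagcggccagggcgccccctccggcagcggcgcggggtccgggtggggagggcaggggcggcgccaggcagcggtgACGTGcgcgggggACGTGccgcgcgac
Ankrd37: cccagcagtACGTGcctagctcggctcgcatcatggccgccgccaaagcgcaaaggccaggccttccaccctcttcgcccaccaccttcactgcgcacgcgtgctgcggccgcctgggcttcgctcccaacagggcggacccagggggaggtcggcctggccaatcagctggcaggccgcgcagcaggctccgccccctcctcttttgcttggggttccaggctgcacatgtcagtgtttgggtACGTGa
The *Ldha* stretch held 5 matches at 3 places, 2 of the places being CACGTG, and the *Ldhb* stretch held 0. Where a gene had more than 1 window, the window with most ACGTG was printed. *Ldha* had 2 windows and *Ldhb* had 1, so the contrast of 5 with 0 rests on that choice. Of GCGTG the *Ldhb* stretch held 1 match and the *Ldha* stretch 0. A second window of *Ldha*, at another RefSeq start (chr7:46846832-46847131, plus strand), held 0 matches of ACGTG. It held 2 of GCGTG, 1 of them in the 250 bases before the start. For 38 of the 43 windows the last 20 bases were found in an annotated transcript of the gene within 2000 bases of its start, among them that second window but not the printed one. *Tpi1*, *Pfkp*, *Pfkl*, *Gpi1*, *Eno1* and *Pdk1*, which fell too, also had 0 matches of ACGTG in all their windows. *Hif1a*, *Pfkm*, *Egln1*, *Ddit4* and *Vegfa*, which did not pass in WT from E8.5 to E9.5, each had ACGTG in at least 1 window. Part of the 32 genes was listed for a known response to hypoxia, so the share with ACGTG does not test a link with the falls. These are matches of letters and were not tested for binding; no match of ACGTG in the *Ldhb* window says only that these letters are not in it.

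The exporters of lactate fell as well. *Slc16a3* encodes MCT4, the low-affinity transporter of strongly glycolytic cells. It stood at 301 and 349.6 CPM in E7.5 WT, 226 and 275 in E8.5 WT and 125, 112, 120.0 and 136 in E9.5 WT, and at 276 and 309, 229 and 279.6, and 127, 112, 131 and 161 in null. E9.5 lay below all earlier libraries in both genotypes. *Slc16a3* fell 2.03-fold in WT (log2 -1.02, SE 0.13) and by 0.93 in null from E8.5 to E9.5. *Slc16a1* encodes MCT1, which carries lactate either way. Its levels were 201 and 184 CPM in E7.5 WT, 73.9 and 86.0 in E8.5 WT and 48.7, 56.0, 46.8 and 51.2 in E9.5 WT, and 119 and 161, 76.5 and 106, and 48.9, 60.4, 49.8 and 58.5 in null. Each stage lay below the stage before it in both genotypes. *Slc16a1* fell by 1.27 in WT (2.41-fold, adjusted p 7e-05) and 0.62 in null to E8.5, then by 0.66 and 0.74 to E9.5.

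*Pdk1* encodes a kinase that limits the oxidation of pyruvate in mitochondria by shutting pyruvate dehydrogenase. It stood at 50.5 and 52.7 CPM in E7.5 WT, 64.1 and 60.2 in E8.5 WT and 33.1, 32.7, 31.2 and 36.1 in E9.5 WT. In null libraries the levels were 36.8 and 40.1, 62.1 and 46.7, and 33.0, 33.0, 36.4 and 35.6. *Pdk1* was thus highest at E8.5 and lowest at E9.5 in both genotypes. It fell by 0.90 in WT and 0.66 in null at the later step, and rose by 0.51 in null (adjusted p 0.0026) but not past the threshold in WT (0.27, adjusted p 0.063) at the earlier one. The null rise did not pass without E8.5 null A (0.28) or with only the groups compared.

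The oxygen sensors moved mostly at the earlier step, and 1 of their 5 genes fell in WT from E8.5 to E9.5. *Hif1a* encodes the oxygen-labile subunit HIF1A. It held 155 and 181 CPM in E7.5 WT, 123 and 125 in E8.5 WT and 124, 126, 125 and 142 in E9.5 WT, and 204 and 169, 127 and 113, and 144, 132, 134 and 133 in null. E7.5 was the highest stage of each genotype. *Hif1a* fell by 0.44 in WT (adjusted p 0.0024) and 0.64 in null (adjusted p 0.00024) to E8.5 and then changed by 0.06 (95% interval -0.12 to 0.24) and 0.17 (-0.01 to 0.36) without passing.

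*Egln1* encodes PHD2, the main prolyl hydroxylase that marks HIF1A. Its levels were 82.4 and 104 CPM in E7.5 WT, 119 and 119.6 in E8.5 WT and 119, 120.0, 109.8 and 110.0 in E9.5 WT, and 83.8 and 98.4, 126 and 117, and 119, 119, 121 and 120.2 in null. Levels rose once, from E7.5 to E8.5, by 0.35 in WT and 0.42 in null (adjusted p 0.0094 and 0.0037). The rise in WT did not pass with library totals, with only the groups compared or without E7.5 WT A, nor that in null without E7.5 null A. *Egln3* encodes PHD3, an oxygen sensor that is itself a known HIF target. It held 33.9 and 38.4 CPM in E7.5 WT, 9.75 and 12.0 in E8.5 WT and 9.16, 7.67, 7.24 and 8.59 in E9.5 WT, and 36.9 and 42.8, 10.6 and 12.6, and 10.3, 7.74, 8.04 and 8.93 in null. E7.5 stood apart from all later libraries. *Egln3* fell 3.33-fold in WT (log2 -1.73, SE 0.16, adjusted p 3.6e-06) and 3.46-fold in null (log2 -1.79, SE 0.16) to E8.5.

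*Epas1* encodes HIF2A, the HIF subunit known from endothelium, and was scarce. It stood at 6.85 and 3.14 CPM in E7.5 WT, 4.97 and 5.29 in E8.5 WT and 4.18, 2.27, 1.99 and 5.28 in E9.5 WT, and at 4.86 and 3.95, 7.75 and 6.51, and 2.55, 2.16, 1.43 and 2.89 in null. The WT stages overlapped, and the null E9.5 libraries lay below the other null libraries. *Epas1* fell 3.16-fold in null from E8.5 to E9.5 (log2 -1.66, SE 0.38, adjusted p 0.0038), with -0.57 in WT (adjusted p 0.25); the difference between the genotypes did not pass. *Arnt*, the constant partner of both HIF subunits, changed by at most 0.20 at either step in either genotype on library sums and did not pass there.

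Among the hypoxia target genes 2 of 5 fell in WT from E8.5 to E9.5. *P4ha1*, a collagen prolyl hydroxylase, held 102 and 109 CPM in E7.5 WT, 117 and 110.0 in E8.5 WT and 91.7, 82.4, 81.6 and 98.9 in E9.5 WT, and 105 and 108, 112 and 108, and 91.8, 84.9, 89.5 and 92.6 in null. E9.5 was the lowest stage. *P4ha1* fell by 0.36 in WT and 0.29 in null at the later step, but in neither with library totals. *Ddit4*, the stress-induced inhibitor of mTORC1, held 46.9 and 49.3 CPM in E7.5 WT, 29.6 and 38.0 in E8.5 WT and 28.9, 22.0, 34.4 and 29.3 in E9.5 WT, and 59.4 and 43.3, 36.7 and 41.0, and 38.9, 24.8, 43.6 and 42.4 in null. No comparison of *Ddit4* on library sums passed.

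*Ankrd37*, an ankyrin repeat gene and known HIF1A target, had the smallest adjusted p of the 32 between genotypes on library sums. It held 29.1 and 25.7 CPM in E7.5 WT, 18.2 and 20.8 in E8.5 WT and 14.5, 13.8, 13.8 and 14.1 in E9.5 WT, and 15.3 and 18.5, 21.1 and 28.6, and 14.4, 15.9, 16.2 and 13.4 in null. From E7.5 to E8.5 it fell in WT (log2 -0.49, adjusted p 0.011) and rose in null (log2 0.56, adjusted p 0.0061). The fall did not pass without E7.5 WT A (-0.40) or E8.5 WT A (-0.39), and the rise did not pass without E7.5 null A (0.42) or E8.5 null B (0.34) or with only the groups compared. *Adm* encodes adrenomedullin, a peptide of vessel and lymphatic development, and was scarce. It held 1.76 and 0.915 CPM in E7.5 WT, 2.22 and 2.41 in E8.5 WT and 1.42, 1.90, 1.81 and 1.88 in E9.5 WT, and 1.18 and 0.987, 2.94 and 3.32, and 1.71, 1.41, 2.41 and 2.71 in null. E8.5 was the highest stage, with a rise of 1.49 in null (2.81-fold, SE 0.34, adjusted p 0.0035) and 0.84 in WT that did not pass (adjusted p 0.057). *Vegfa*, the growth factor of blood vessels, held 26.2 to 49.1 CPM over all libraries and fell at the later step in null alone by the test (log2 -0.48, adjusted p 0.013), beside 0.03 in WT.

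At the earlier step, from E7.5 to E8.5, more of the 32 genes fell than rose in both genotypes. In WT 2 genes rose (*Gapdh*, *Egln1*) and 11 fell, against 22.8% of all genes that rose and 22.0% that fell. In null 5 rose (*Gapdh*, *Pdk1*, *Egln1*, *Ankrd37*, *Adm*) and 9 fell, against 22.6% and 18.3%. The share of the 32 genes that fell in WT was above that of all genes, and the share that rose was below it. With library totals, which moved every gene by -0.17 in WT, 18 fell and 1 rose (*Gapdh*). Of the null falls, *Pfkl* (-0.23), *Pgam1* (-0.30), *Pkm* (-0.26) and *Eno2* (-0.75) were not named above for this step; in WT *Pfkl* (-0.27), *Tpi1* (-0.26), *Pgam1* (-0.37) and *Eno2* (-0.91) fell. With 1 library left out, *Ankrd37*, *Egln1*, *Slc2a3*, *Eno2*, *Pfkl* and *Tpi1* each no longer passed at this step in WT in at least 1 fit, all but *Egln1* of them without E8.5 WT A. In null these were *Ankrd37*, *Egln1*, *Pdk1*, *Eno2*, *Ldhb*, *Pfkl*, *Pkm* and *Slc16a1*, each without a library of E7.5 or E8.5 null.

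Library sums mix cell types whose shares change with stage. Erythroid markers, 8 genes summed as CPM of all UMIs, ranged from 31753 to 53941 in E8.5 WT and 5720 to 17818 in E9.5 WT, and from 15526 to 45140 in E8.5 null and 258 to 683 in E9.5 null. Erythroid cells made up 16.3 and 16.7% of the cells in E8.5 WT and 1.63 to 5.32% in E9.5 WT, and 11.4 and 15.5% in E8.5 null and 0.0830 to 0.388% in E9.5 null. Counts were therefore also summed within each cell type the authors' labels give. From E8.5 to E9.5, 31 types had at least 2 WT libraries per stage with over 15 cells, which gave 833 pairs of gene and type. Of these, 394 fell and 23 rose, against 5.17% and 4.48% of all pairs tested, and the median log2 change was -0.52 beside 0.01 for all genes. In null, 207 of 523 pairs in 19 types fell and 10 rose, against 4.23% and 3.65%. Among the 1773 most abundant genes, 14.1% of the WT pairs fell and 3.52% rose, with a median log2 change of -0.11. In null 12.3% of their pairs fell and 2.62% rose. The decline was thus also measured with cell type held fixed. Without the cells whose barcode E9.5 WT C and E9.5 WT D share, 390 WT pairs fell and 23 rose, and on library sums 22 genes fell and 1 rose.

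The falls within types followed the roles. In WT, 49 of 62 pairs of the glucose transporters fell, 125 of 234 from glucose to triose phosphate and 122 of 156 from triose phosphate to pyruvate, with 0 rises in each. Of the pyruvate and lactate genes 72 of 155 pairs fell and 22 rose, all 22 of them *Ldhb*. Of the oxygen sensors 7 of 112 fell and 1 rose, and of the target genes 19 of 114 fell and 0 rose. *Pgk1* fell in 30 of 31 types, *Aldoa* in 28, *Tpi1* and *Ldha* in 27 each, *Pgam1* in 26, and *Slc2a3*, *Eno1* and *Slc16a3* in 25 each. *Slc2a1* fell in 24, *Pfkl* in 23, *Gapdh* in 22, *Pkm* in 19, *Hk2* in 17 and *Gpi1* in 14. *Hk1* and *Pfkm* passed in 0 of 24 types each, and *Hif1a* in 0 of 31.

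**Figure D3:**
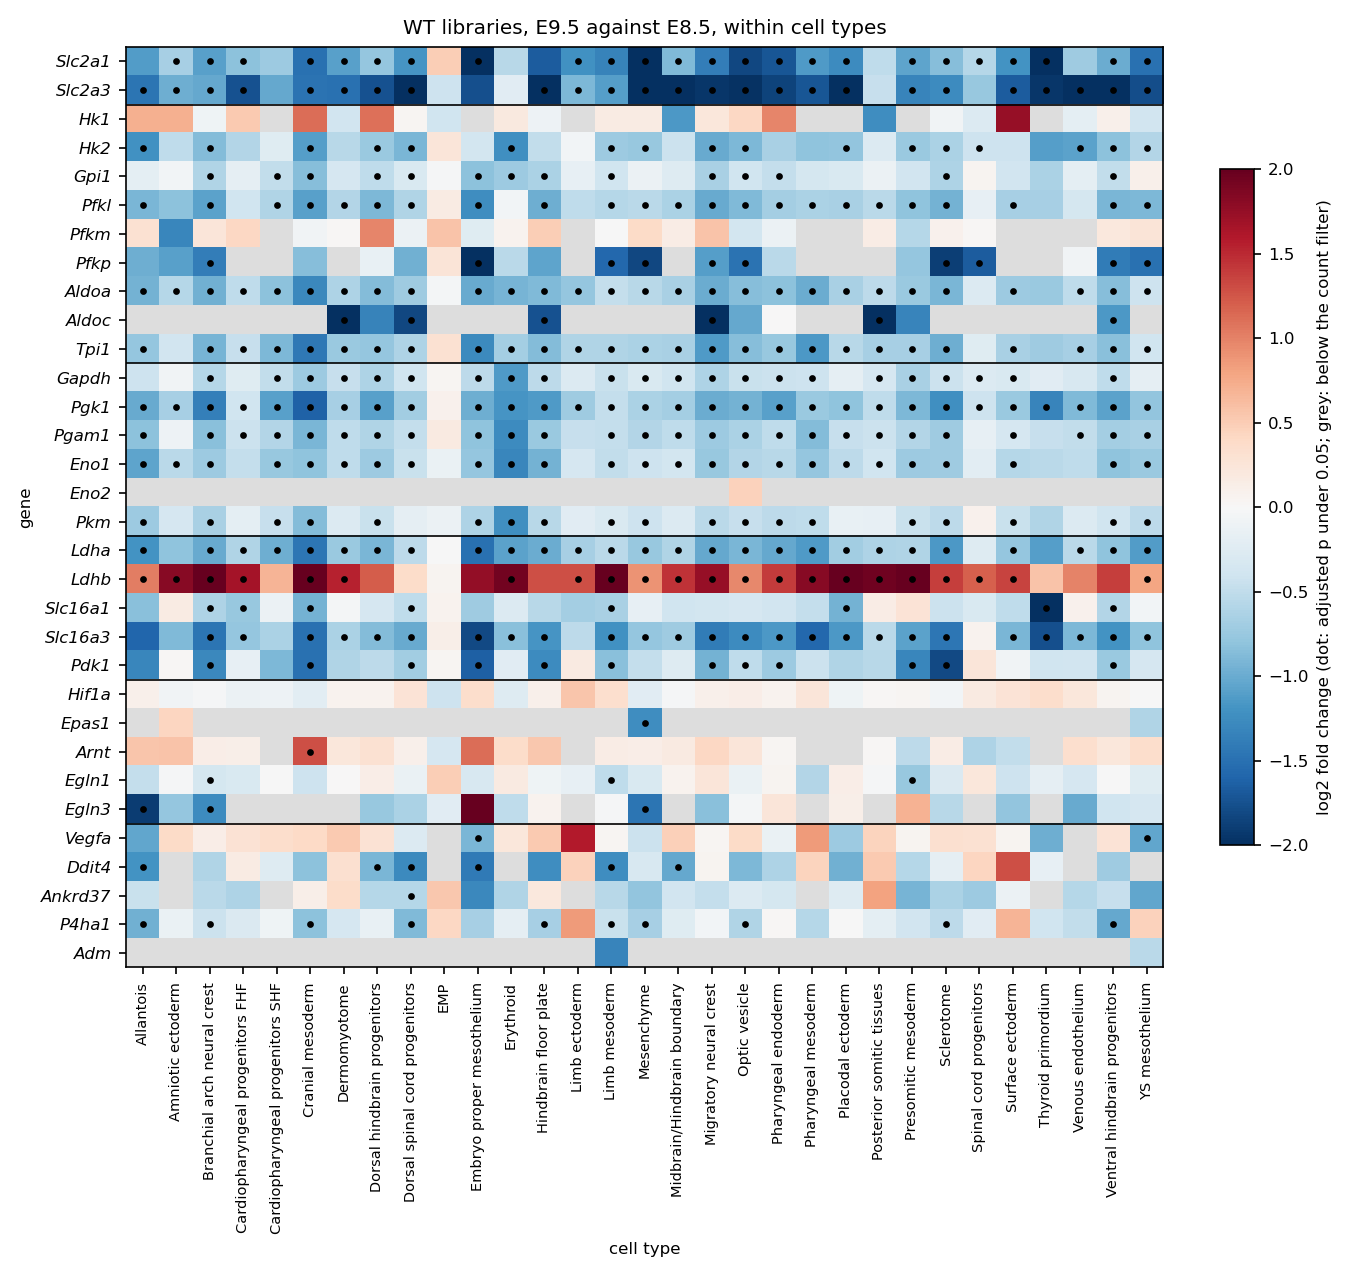
Log2 fold change from E8.5 to E9.5 in WT of each gene in each of the 31 cell types, with colours cut at 2 in either direction, a dot for an adjusted p under 0.05 and grey for genes below the filter on low counts. Glycolytic genes are lower across nearly all types, *Ldhb* is higher in 22 of 31, and the erythro-myeloid progenitors (EMP) hold no dot.

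The falls are given here for single types. In WT mesenchyme *Slc2a3* went from 580 to 667 CPM at E8.5 down to 54.7 to 105 at E9.5 (log2 -2.96, SE 0.19, 4 against 2 libraries), and *Slc2a1* from 1219 to 1301 down to 216 to 402 (log2 -2.24, SE 0.26). In placodal ectoderm *Slc2a3* went from 991 to 995 down to 62.1 to 149 (log2 -3.29, SE 0.34). The groups did not overlap in these types. In spinal cord progenitors *Slc2a1* fell by 0.57 (SE 0.11), and *Pgk1* fell by 1.61 in cranial mesoderm (SE 0.08). Branchial arch neural crest and limb mesoderm had 20 falls each, of 28 and 29 genes tested, where 12.6% and 7.59% of all genes fell. Spinal cord progenitors, amniotic ectoderm and thyroid primordium had 5 falls each, where 2.87%, 0.935% and 1.42% of all genes fell. The count did not follow the size of the change in every type. The median log2 change of the members was -0.64 in thyroid primordium, with 5 falls, and -0.50 in limb mesoderm, with 20. In other types count and change went together, as in spinal cord progenitors (-0.23, 5 falls) and branchial arch neural crest (-0.69, 20 falls). EMP, progenitors of early blood, had 0 of 26. In EMP 0.662% of all genes fell, and the median log2 change of the members was 0.07, whereas it was below 0 in each of the other types.

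*Ldhb* rose most in cranial mesoderm, from 21.6 to 32.2 CPM at E8.5 to 148 to 221 at E9.5 (log2 2.59, SE 0.23), in limb mesoderm (log2 2.19, SE 0.21) and in branchial arch neural crest (log2 2.18, SE 0.38). In null limb mesoderm it rose by 2.29 and in null amniotic ectoderm by 1.93. *Arnt* rose in cranial mesoderm alone of 26 types (log2 1.30, SE 0.35, 8.39 to 8.88 against 21.8 to 24.4 CPM). *Epas1*, testable in 3 types, fell in mesenchyme in WT (log2 -1.24) and null (log2 -1.77). *Egln3* fell in 3 of 21 types, most in the allantois (log2 -1.90, SE 0.36). In null, *Ddit4* rose in surface ectoderm (log2 1.07) and *Adm* fell in first heart field cardiopharyngeal progenitors (log2 -2.33).

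The null libraries come from the same chimeras but are separate libraries, with the same pairs of gene and type measured again. Of 245 pairs that fell in WT and could be tested in null, in 18 types, 175 fell in null, 245 were below 0 and 0 rose. Of 15 that rose in WT, 8 rose in null and 15 were above 0. Over all genes in these types, 50.4% of the pairs that fell in WT fell in null and 98.1% were below 0, so the same sign in both genotypes was usual for any gene, beside 71.4% falls among the members.

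At the earlier step only lateral plate mesoderm and mesenchyme had enough cells at both stages. In WT, 20 of 58 pairs fell and 5 rose, against 8.65% and 10.8% of all pairs. In null, 13 of 58 fell and 2 rose, against 4.86% and 7.16%. Mesenchyme held 15 of the 20 WT falls, among them *Egln3* (log2 -2.61), *Vegfa* (-1.45) and *Pfkp* (-1.13), and 11 of the 13 null falls, among them the same genes (-2.24, -1.56 and -1.13). In lateral plate mesoderm *Gapdh* rose in both genotypes (0.56 in WT, 0.63 in null). *Egln3* (-1.36) and *Pfkp* (-1.51) fell there in WT, beside -0.84 and -0.76 in null that did not pass. *Slc2a1* fell in null (-1.05), beside -1.48 in WT that did not pass (edgeR adjusted p 0.070), and *Vegfa* rose in null (0.87), beside 0.18 in WT that did not pass. The differences between the genotypes' steps within this type were not tested. *Vegfa* thus fell in mesenchyme in both genotypes while its library sums changed by -0.11 and 0.29 without passing.

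Levels differed widely between cell types. Summed over the 15 glycolytic enzyme genes, WT levels at E7.5 were highest in ectoderm (17701 CPM), caudal epiblast (17689) and non-neural ectoderm (16775) and lowest in intermediate mesoderm (13313), gut tube (13016) and visceral endoderm (12035). At E8.5, optic vesicle (18394, libraries 18368 and 18419), branchial arch neural crest (18362) and neuromesodermal progenitors (18345) led 36 types, and amniotic ectoderm (9237), yolk sac mesothelium (9237) and EMP (8624) were last. The first 3 of these overlapped in their libraries, as did the last 3. At E9.5, spinal cord progenitors (15361, range 14064 to 16152), hindbrain neural progenitors (14069) and late dorsal forebrain progenitors (13822) led 40 types. Megakaryocyte progenitors (7760), yolk sac mesothelium (7055.5) and erythroid cells (5252, range 4858 to 5629) were last, and the erythroid range lay below that of yolk sac mesothelium (6754 to 7428).

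**Figure D4:**
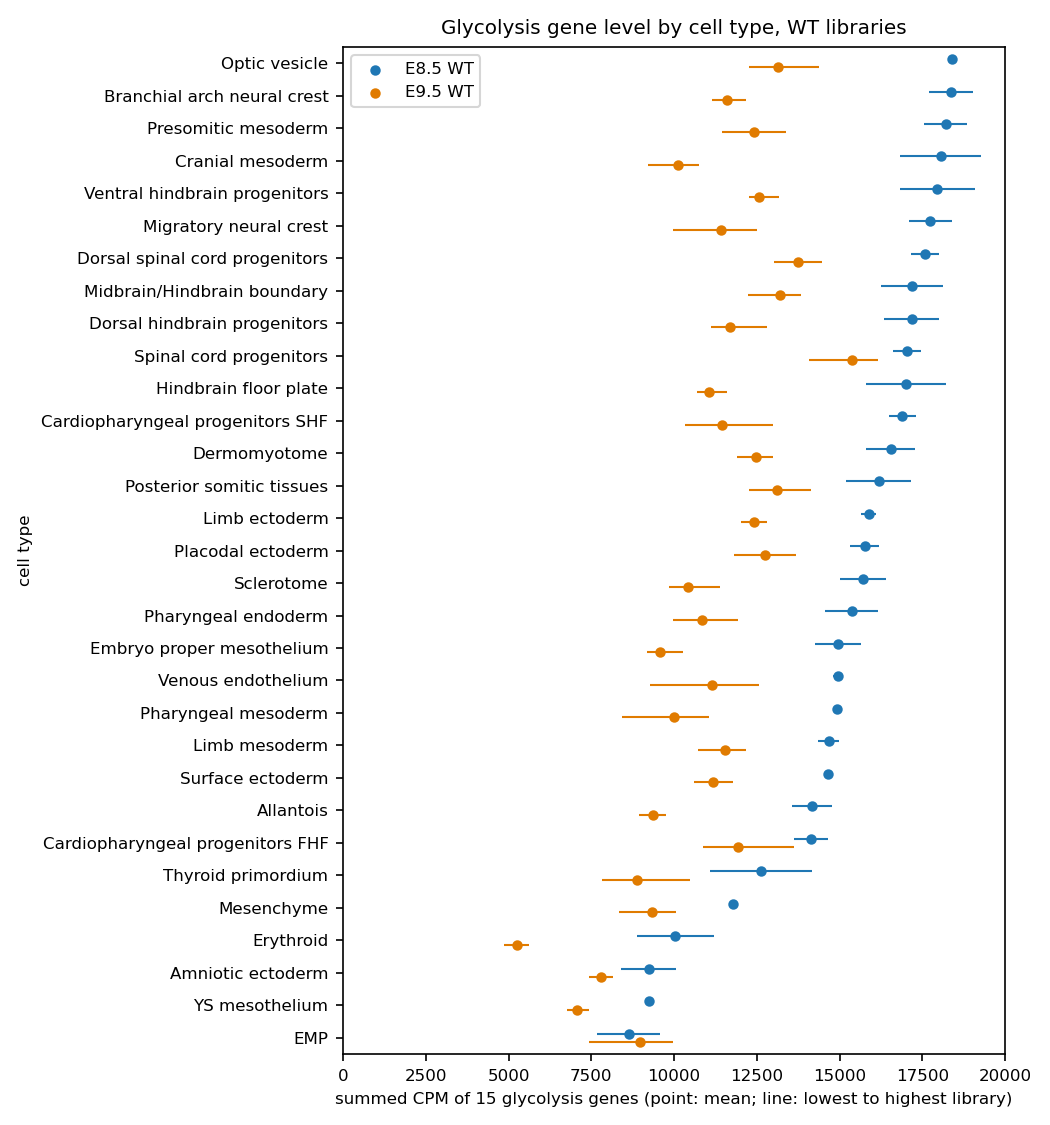
Summed CPM of the 15 glycolytic enzyme genes in WT cells of each of the 31 cell types with libraries at both stages, at E8.5 and E9.5. Points are means over libraries and lines run from the lowest to the highest library; the E9.5 mean is below the E8.5 mean in every type but EMP.

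The transporters had their own order. *Slc2a1* was highest in mesenchyme at E7.5 (1763 CPM) and in amniotic ectoderm at E8.5 (2199.7) and E9.5 (1419), and lowest in intermediate mesoderm (185), EMP (50.7) and sclerotome (41.6). *Slc2a3* was highest in gut tube at E7.5 (2855), and at E9.5 in amniotic ectoderm (1779) and epidermis (1674), whose library ranges overlapped, and lowest at E9.5 in frontonasal mesenchyme (11.3). Amniotic ectoderm thus had the highest level of both transporters at E8.5 but was among the 3 lowest types for the enzymes. *Hk1* was highest in blood lineages at every stage, in blood progenitors at E7.5 (109), erythroid cells at E8.5 (69.1) and megakaryocyte progenitors at E9.5 (157). *Ldhb* at E9.5 was highest in frontonasal mesenchyme (699.97, range 459 to 883), with no overlap with optic vesicle (334, range 270.4 to 447), and lowest in megakaryocyte progenitors (12.6).

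The hypoxia genes had other orders. *Epas1* was highest in amniotic ectoderm (84.8 at E8.5, 116 at E9.5) with yolk sac mesothelium next at both stages (47.8 and 27.2). *Adm* was highest in the epicardium at E9.5 (36.4, range 24.6 to 58.6), *Vegfa* in yolk sac mesothelium at E8.5 (115) and *P4ha1* in yolk sac mesothelium at E9.5 (363). *Egln3* led in venous endothelium at E8.5 (58.9) and megakaryocyte progenitors at E9.5 (56.2). *Ddit4* led in presomitic mesoderm at E8.5 (95.01) and E9.5 (67.4). *Hif1a* had a narrow range at E9.5, from 62.1 in erythroid cells to 193 in somitic mesoderm.

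Between null and WT cells few of the 32 genes passed the test at any stage. On library sums 2 genes passed at E7.5, *Ankrd37* and *Pdk1*, both lower in null, against 5.32% of all genes tested. At E8.5 and E9.5 edgeR called 0 of 32, against 0.212% and 1.36% of all genes, and DESeq2 called 0 as well. At an unadjusted p under 0.05 there were 7 genes at E7.5 (21.9%, against 18.2% of all genes). There were 5 at E8.5 (15.6%, against 5.27%) and 4 at E9.5 (12.5%, against 9.09%). Such shares were not counted among the 1773 most abundant genes alone. At E7.5 *Ankrd37* was at 15.3 and 18.5 CPM in null against 29.1 and 25.7 in WT (log2 -0.71, 95% interval -1.01 to -0.41, adjusted p 0.0090). *Pdk1* was at 36.8 and 40.1 against 50.5 and 52.7 (log2 -0.43, -0.67 to -0.19, adjusted p 0.039). Neither gene's groups overlapped, but with 1 library left out 0 or 1 gene passed.

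The levels of *Pkm* given above did not overlap between genotypes at any stage, null below WT. Its log2 difference was -0.15, -0.22 and -0.14 from E7.5 to E9.5 and did not pass (edgeR adjusted p 0.40, 0.78 and 0.53). Within cell types *Pkm* was below 0 in all 7 types tested at E7.5, all 20 at E8.5 and 97.3% of 37 at E9.5, with 4, 5 and 21 types at an unadjusted p under 0.05. Of all pairs of gene and type, 4.06%, 4.32% and 6.26% had such a p at these stages. The types of a stage come from the same libraries, so they are not separate repeats of the *Pkm* difference. This gene was picked out after its values were seen. How many of all genes part between genotypes at every stage, or keep a single sign across types, was not counted.

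**Figure D5:**
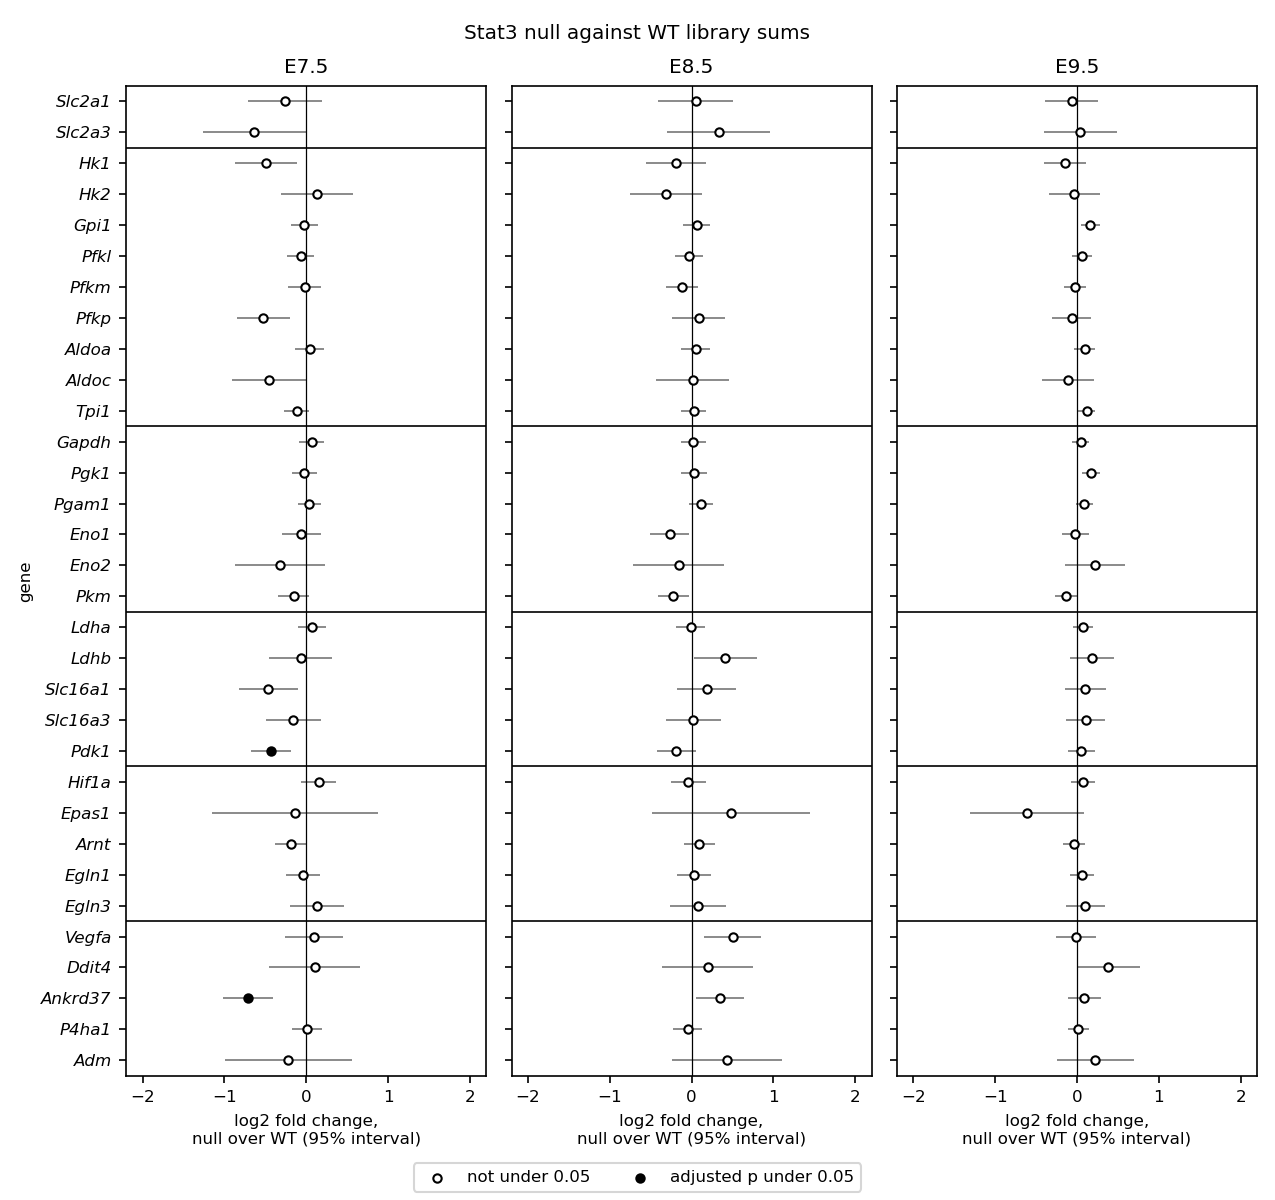
Log2 fold change of null against WT for each gene on library sums at each stage from E7.5 to E9.5, with 95% intervals and filled points for an adjusted p under 0.05. The filled points are *Ankrd37* and *Pdk1* at E7.5. Most points at E9.5 lie close to 0, with *Epas1* farther off, and intervals there are mostly shorter than at the earlier stages.

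Both genes were highest at E7.5 in extra-embryonic ectoderm of the host, at 87.6 CPM for *Ankrd37* and 104 for *Pdk1*. The 6 listed markers of extra-embryonic ectoderm summed to 397 to 570 CPM of all UMIs in E7.5 WT libraries and 115 to 120 in null, and 6 markers of visceral and extra-embryonic endoderm to 1024 to 1171 and 244 to 255. When the 7 cell types present in both genotypes were given equal weight, *Pdk1* was at -0.25 (adjusted p 0.88) and *Ankrd37* at -0.17 (adjusted p 0.90). Within cell types at E7.5, 0 of 202 pairs of gene and type passed, against 0.247% of all pairs, with 18 (8.91%, against 4.06%) at an unadjusted p under 0.05; DESeq2 and limma-voom called 0 as well.

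The step from E7.5 to E8.5 differed between genotypes for 1 gene, *Ankrd37* (difference of the log2 changes 1.05, edgeR adjusted p 0.0158), against 1.41% of all genes. It did not pass when only the groups compared were fitted, without A of either genotype at E7.5, or without null B or WT A at E8.5. From E8.5 to E9.5 edgeR found a difference for 0 of 32, against 0.0321% of all genes, with 1 gene at an unadjusted p under 0.05, and DESeq2 found 0. For the largest falls the genotypes' changes had wide but overlapping intervals: *Slc2a3* -2.47 to -1.42 in WT and -2.76 to -1.71 in null, and *Slc2a1* -1.88 to -1.13 and -2.0 to -1.24.

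Within cell types, 1 of 549 pairs passed at E8.5, against 0.0929% of all pairs. With 1 library left out, 1 to 29 pairs passed, 29 of them without E8.5 null A and 12 without E8.5 null B. *Ldhb* was higher in null at the midbrain/hindbrain boundary, at 155 to 182 CPM against 80.9 to 90.4 in WT (log2 1.00, SE 0.15, 95% interval 0.68 to 1.33, adjusted p 0.00757), with no overlap. In the same type at E9.5 *Ldhb* stood at 0.33 (adjusted p 0.946). Leaving out 1 library in turn, the pair passed in 3 of 4 fits and not without E8.5 WT B (log2 0.95, adjusted p 0.26). At E9.5, 1 of 985 pairs passed, against 0.271% of all pairs: *Pkm* was lower in null placodal ectoderm, at 1780.0 to 1938 CPM against 2262 to 2646 in WT (log2 -0.41, adjusted p 0.0364, 2 libraries each). DESeq2 did not call it. At an unadjusted p under 0.05 there were 37 pairs at E8.5 (6.74%, against 4.32% of all pairs) and 113 at E9.5 (11.5%, against 6.26%), 21 of the 113 being those of *Pkm*.

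The balance between paralogs, taken as the share of 1 gene in its pair or trio, was compared between genotypes within stages for 8 genes by an exact permutation test of 2520 arrangements, two-sided, with a smallest possible p of 0.000794. None passed (smallest adjusted p 0.26, for *Aldoc*, raw p 0.0325, with null minus WT of -0.0603 percentage points on average and lower in null at all 3 stages). *Slc2a3* took 50.4%, 40.9% and 34.1% of the transporter pair in WT over the 3 stages and 43.8%, 45.6% and 35.7% in null. *Pfkp* took 12.1%, 5.51% and 3.59% of the phosphofructokinase trio in WT over the 3 stages and 9.18%, 6.01% and 3.31% in null. The group means of *Hk2* in the hexokinase pair lay between 85.3% and 90.4%. Within the HIF pair the group means of *Epas1* lay between 1.63% and 5.59%.

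The other genes of both pathways, 38 names each that did not include the 32, were counted in the same fits. From E8.5 to E9.5, 9 of 36 tested glycolysis-related genes fell and 6 rose in WT, against 17.7% and 22.7% of all genes, and 7 fell and 6 rose in null, against 17.9% and 22.4%. Of 37 tested hypoxia-related genes 15 fell and 5 rose in WT, and 18 fell and 5 rose in null, against the same shares. The 3 glycolysis-related genes with the smallest adjusted p in WT were *Pfkfb4*, which makes an activator of phosphofructokinase (log2 -1.31), the pyruvate transporter gene *Slc16a7* (1.75) and the hexokinase *Hk3* (4.17). The 3 hypoxia-related ones were *Cited2*, an inhibitor of HIF (-1.64), the mitophagy receptor gene *Bnip3l* (-0.80) and *Higd1a* (-0.81). Within WT cell types 27 of 531 glycolysis-related pairs fell and 43 rose, and 201 of 805 hypoxia-related pairs fell and 21 rose, against 5.17% and 4.48% of all pairs.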

How the data were processed

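RNA of single cells was measured in 16 libraries of *Stat3* null and WT host cells from chimeric embryos of 3 stages, E7.5 to E9.5. Per the study's methods, the authors aligned reads with Cell Ranger to mm10 with the tdTomato sequence added, removed cells outside their limits on reads, genes, mitochondrial and ribosomal share, predicted doublets, and transferred cell types from a gastrulation atlas. The deposited matrix holds UMI counts, not normalised, and its cell table gives quality calls, cell types, and the percent of UMIs from mitochondrial genes as computed by the authors. Cells that passed the authors' quality filter and were not called doublets were used. Null cells were those sorted as tdTomato-positive, and WT cells those sorted as negative without a tdTomato UMI.

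Counts were summed per library, and per library and cell type where a library had more than 15 cells and each group at least 2 libraries. Haemoglobin, ribosomal, mitochondrial, predicted, Y-linked and X-inactivation genes were left out of the fits. Sums were fitted with edgeR 4.0.16 (R 4.3.3; filterByExpr, TMM scaling, quasi-likelihood test), for library sums in 1 fit over all 6 groups with contrasts between null and WT at each stage, between successive stages in each genotype, and for the interaction. Within cell types, each comparison had its own fit of the libraries compared. P values were adjusted by Benjamini-Hochberg over all genes tested in a comparison, with 0.05 as the threshold. Within cell types the adjustment was made for each type on its own and not across types. The members and the other gene lists were chosen with earlier results of these data known.

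All 32 genes are accounted for by role. Values in every library are given for genes past the threshold with an absolute log2 change above 1 (at most the 10 with the smallest adjusted p in a comparison), for genes whose stage step differed between genotypes, and for the 2 genes of each role with the highest mean level in WT; *Pdk1* was added after its values were seen. Cell types named are those where a gene passed with such a change, and the 3 highest and 3 lowest levels; single pairs with a smaller change were added after their values were seen. Of the wider lists the 3 genes with the smallest adjusted p are named. DESeq2 1.42.0, limma-voom 3.58.1, no filter, library totals, other cell filters and omission of each library were alternatives. The fits were checked on simulated counts. Library depth of 20682659 to 138613245 UMIs limits genes of a few CPM. Python 3.11.15 and matplotlib 3.10.9 were used for tables and figures.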

Additional observations from a re-analysis of the deposited data

Results flagged for a closer look

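In 7 of 80 groups of 4 libraries at E9.5, 1 library lay apart from the other 3 by a gap above Dixon's critical share of the range of the group, which chance gives in about 1 in 20 groups. *Slc2a3* was at 63.3 CPM in E9.5 null C with the next library at 89.3. *Tpi1* was at 813 in E9.5 null D with the next at 746. *Hif1a* was at 142 in E9.5 WT D (next 126) and at 144 in E9.5 null A (next 134). *Vegfa* was at 26.2 in E9.5 WT A (next 29.9). The share of *Slc16a3* in the lactate transporter pair was 66.8% in E9.5 WT B (next 71.9%) and 64.9% in E9.5 null B (next 72.2%).

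*Ankrd37* was marked because its change from E7.5 to E8.5 differed between null and WT by 1.05 on the log2 scale in the interaction test (edgeR, adjusted p 0.0158), falling in WT and rising in null. The difference did not pass when only the groups compared were fitted, or without any 1 of E7.5 WT A, E7.5 null A, E8.5 null B and E8.5 WT A. Extra-embryonic ectoderm, where the level of *Ankrd37* was highest, differed in marker level between the E7.5 genotypes, and the E8.5 null libraries A and B had 89.8% and 72.3% of cells with a tdTomato UMI. The part of these values in the difference was not tested.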

How the results depend on the processing

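The number of genes or pairs past the threshold from E8.5 to E9.5, falls and rises together, stayed within 1.5 times under every alternative run, while the null falls on library sums went from 23 to 15 with library totals. When 1 library was left out, 303 to 423 pairs of gene and type passed in WT and 196 to 223 in null, and on library sums 19 to 23 genes in WT and 20 to 25 in null. For the step from E7.5 to E8.5 the ranges were 19 to 23 WT pairs, 9 to 15 WT genes, 8 to 17 null pairs and 9 to 12 null genes. Null pairs at that step were 9 with DESeq2 and 23 without a filter, and null genes 8 when only the groups compared were fitted. Between null and WT on library sums, 0 genes passed at E7.5 with only the groups compared or with equal weight per cell type, and 0 to 1 with 1 library left out, whereas at E8.5 and E9.5 these omissions gave 0. Between null and WT within cell types at E7.5, 2 pairs passed without a filter and 0 to 3 with 1 library left out. At E8.5, 6 passed without a filter, 0 with more than 50 cells per library, and 1 to 29 with 1 library left out, the 29 without E8.5 null A and 12 without E8.5 null B. At E9.5, 0 passed with DESeq2, limma-voom, all stages in 1 fit, more than 50 cells, or without the barcodes that E9.5 WT C and D share, 12 without a filter, and 1 to 3 with 1 library left out. The interaction for E8.5 against E7.5 gave 0 with only the groups compared and 0 to 1 with 1 library left out (0 without A of either genotype at E7.5, or without null B or WT A at E8.5); that for E9.5 against E8.5 and the paralog shares gave 0 throughout. *Pkm* in null from E8.5 to E9.5 reversed with library totals (0.0085), which by construction moved every gene by 0.24. For the other changes the cause was not tested. The 79 single-gene values were each refitted under the alternatives. Of these refits, 339 kept direction and side of the threshold, 32 no longer passed and 1 reversed. The number of cell types in which a gene fell or rose from E8.5 to E9.5 stayed within 1.5 times in 151 refits. It moved further in 41 refits, so the counts of types per gene are approximate. More than 50 cells per library left no cell type at E7.5. A group left with 1 library was assumed to vary like the others. No paired analysis was possible because the library names in the matrix carry no embryo pool that would link them to the pools in the labels.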

Other observations

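At the other steps the wider lists moved as follows (edgeR, library sums). From E7.5 to E8.5, 11 of 36 glycolysis-related genes rose and 5 fell in WT, and 11 rose and 6 fell in null, against 22.8% of all genes that rose and 22.0% that fell in WT and 22.6% and 18.3% in null. The muscle enolase gene *Eno3* rose by 1.55 in WT and 1.26 in null, and *Pfkfb4* by 1.21 and 1.16. *Pfkfb4* was thus highest at E8.5 in both genotypes, since it fell at the later step by 1.31 in WT and 1.50 in null. Of 37 hypoxia-related genes 11 rose and 8 fell in WT, and 12 rose and 4 fell in null. *Hmox1*, which degrades haem, fell by 1.51 in WT, and *Loxl2*, a collagen cross-linking enzyme gene, rose by 0.67 in WT and 0.70 in null.

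Between null and WT at E7.5, 3 glycolysis-related and 6 hypoxia-related genes were lower in null and 0 were higher, against 666 lower and 163 higher of all 15569 genes tested. Extra-embryonic ectoderm markers at that stage were 397 to 570 CPM of all UMIs in WT and 115 to 120 in null, and visceral and extra-embryonic endoderm markers 1024 to 1171 and 244 to 255, and their part in these counts was not tested. The putative hexokinase gene *Hkdc1* was at -2.44 (adjusted p 0.0046), *Errfi1* at -1.0 (adjusted p 0.0011), *Bhlhe40* at -1.95 (adjusted p 0.0019) and *Ak4* at -0.48 (adjusted p 0.0028). At E9.5 the pyruvate kinase gene of liver and red cells, *Pklr*, was the single gene of either list that passed, lower in null by a log2 change of -4.72 (SE 0.53, adjusted p 0.00061). Erythroid markers at that stage were 5720 to 17818 CPM of all UMIs in WT and 258 to 683 in null, and their part in the value of *Pklr* was not tested.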
